A study of Homo sapiens with 3 samples.

Results

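The regions described are the 8-oxodG peaks on the distal long arm of human chromosome 5, taken as every peak of the deposited list on chromosome 5 whose summit lies at or beyond 120 Mb on build hg18. The stretch runs from within band 5q23.1 to the end of the arm. It held 522 of the 23641 peaks in the list, or 2.21% of the peaks on 2.15% of the sequenced genome. The rest of 5q, from the centromere to the same boundary, held 348 peaks, and the short arm 358. The material was MCF10A, an established human breast epithelial cell line that does not form tumours, G0-arrested, that is, resting outside the cell cycle, after 48 hours in DMEM-F12 with 5% horse serum and with no further treatment. Sonicated genomic DNA was pulled down with antibody AB5830 against 8-hydroxydeoxyguanosine, another name for 8-oxodG, and sequenced. The labels gave 3 samples of 1 group from 2 experiments and no second condition, and the list combines all of them, so no value has a replicate error. Intervals given with densities, shares and medians are 95% intervals that cover counting error over peaks of this list only, and no test between parts of the arm was run, because peaks of a combined list are not replicates.

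8-oxodG forms when reactive oxygen attacks guanine, the base that is oxidised most easily. It can pair with adenine during replication, and the glycosylase OGG1 removes it as the first step of base excision repair. A peak in such a map is a place where pulled-down fragments pile up over the level around it, so each peak carries both its own height and a local background, and the background grows with the number of copies of a region in the library. MCF10A is an immortalised line, and its karyotype has been described as carrying extra material of distal 5q. Distal 5q holds, by textbook position, the cytokine genes IL3, IL4, IL5, IL13 and CSF2, the protocadherin clusters, the receptor genes CSF1R and PDGFRB and, near the end of the arm, NPM1, NKX2-5 and FLT4. Gene positions on hg18 were not used, so gene names below place a band and do not assign a peak to a gene.

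The peaks of distal 5q stood over a higher background than those of the rest of 5q. The background at the summit, in fragments, is the value derived from pileup and fold enrichment. Its median was 1.38 in distal 5q (95% interval 1.29 to 1.42) with quartiles of 1.04 and 1.89. In the rest of 5q the median was 0.834 (0.786 to 0.912) with quartiles of 0.629 and 1.14. The lower quartile of distal 5q thus lay above the median of the rest, while the ranges overlapped, from 0.460 to 7.08 and from 0.460 to 5.50. The ratio of the medians was 1.66, and the bounds of the separate intervals allow 1.41 to 1.80. A background of at least 1 fragment was found at 404 of 522 summits in distal 5q (77.4%) and at 124 of 348 in the rest (35.6%), against 50.4% in the whole list. A background of at least 2 fragments was found at 23.8% and 4.31%, against 14.2% in the whole list. More copies of distal 5q in the library and more background per copy cannot be told apart in this list.

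The lowest background in the list, 0.460, acts as a floor and was rare in distal 5q. There 5 of 522 peaks stood on it (0.958%, exact binomial interval 0.312 to 2.22), of which 1 lay in 5q23.1, 1 in 5q35.2 and 3 in 5q35.3. In the rest of 5q 22 of 348 stood on it (6.32%, 4.004 to 9.41), and in the whole list 3.82%. The bands from 5q23.2 to 5q35.1 had no peak on the floor.

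**Figure D1:**
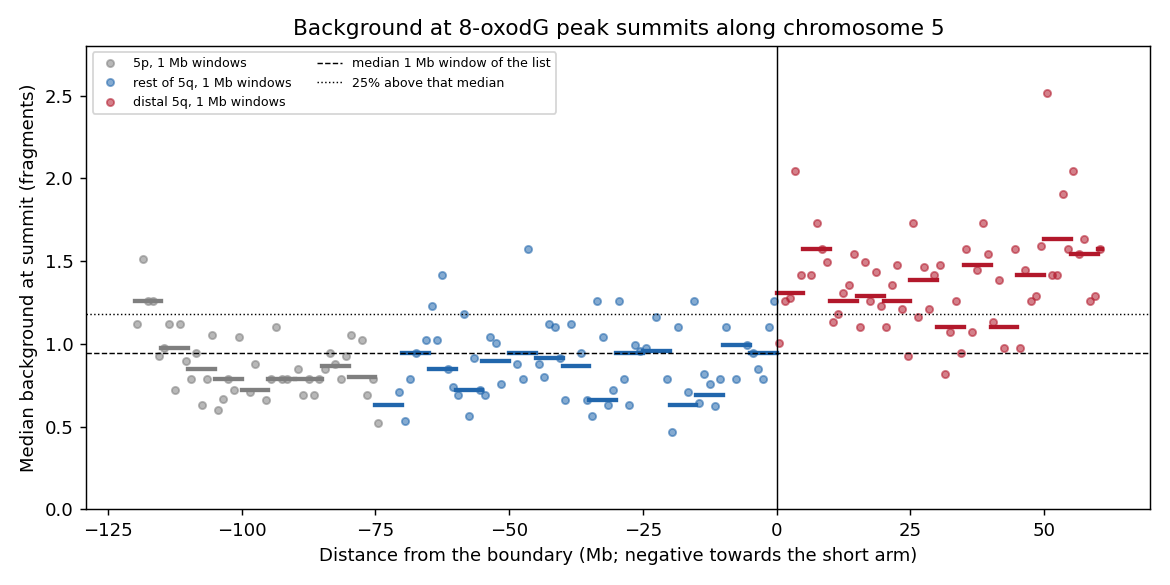
Median background at the summit (fragments) in 1 Mb windows with at least 3 peaks (points) and in 5 Mb windows (bars) along chromosome 5, against the distance from the 120 Mb boundary in Mb. The 5 Mb medians of distal 5q run from 1.10 to 1.64 and those of the rest of 5q from 0.629 to 0.991. The first blue bar spans the centromere and includes peaks of the short arm. The last bar covers only the end of the arm beyond 180 Mb.

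Along the arm the change came near the boundary, and the higher level lasted to the end of the arm. The 13 windows beyond 120 Mb were 5 Mb long, except the last, which had 0.838 Mb of sequence and 11 peaks. Their median background ran from 1.10 to 1.64. In the 14 whole windows between 50 and 120 Mb it ran from 0.629 to 0.991, so the window medians did not overlap. The last window before the boundary had 0.944 (0.755 to 1.42) and the first beyond it 1.31 (1.10 to 1.45), intervals that overlap. The single split of 5q that left the least squared deviation of log2 background fell between summits at 118206929 and 118481251, both in 5q23.1. Splits reaching 95% of the squared deviation that it took up ran from 117908802 to 123103250, a range that includes 120 Mb. That 95% is a chosen cut and not a confidence interval. With the best split the geometric mean was 0.875 before and 1.44 after. It took up 20.8% of the squared deviation between peaks, against 20.3% at 120 Mb. The split was chosen on these values and is given as a description.

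The boundary itself cuts through 5q23.1, a dark Giemsa band. The last peaks before it, with summits 301.9 and 122.9 kb away, had backgrounds of 0.944 and 1.42 and pileups of 29 and 16. The first peaks beyond it, 65.9 and 195 kb away, had 1.10 and 0.460 and pileups of 26 and 10. Over the band, the 25 peaks outside had a median background of 0.944 and the 6 inside 1.01, and the densities were 5.21 (3.37 to 7.69) and 4 (1.47 to 8.71) per Mb. The few peaks of this band do not place the change more closely.

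Most 1 Mb windows of distal 5q passed a fixed level of background. A window with at least 3 peaks was counted as raised when its median background exceeded that of the list's median window (0.944) by 25% or more, that is at 1.18 and above. Over the whole list 24.31% of such windows were raised. In distal 5q 46 of 59 were raised (78.0%), in the rest of 5q 8 of 61 (13.1%) and on 5p 3 of 42 (7.14%). The mean over windows was 1.39 ± 0.299 (SD over 59 windows) in distal 5q and 0.901 ± 0.231 (SD over 61 windows) in the rest. Of the 59 windows, 57 were at or above the median window of the list. The lowest was the window from 151 Mb in 5q33.1 at 0.818, and the highest that from 170 Mb in 5q35.1 at 2.52, followed by those from 123 Mb in 5q23.2 and from 175 Mb in 5q35.2, both at 2.04. In the rest of 5q the highest was the window from 73 Mb in 5q13.3, at 1.57.

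Background values stood on discrete steps, and the difference was read among the peaks of each kind of step. Of the peaks of distal 5q, 305 had whole multiples of 0.157 fragments, 190 of 0.0157 only and 22 of 0.00315 only, each within 2% of a step of 0.0157, and the other 5 stood on the floor. Steps of this kind arise when whole fragments are counted in windows of fixed length, with finer steps for longer windows, but the sources used here name no window. On the coarse steps the median was 1.57 in distal 5q and 1.10 in the rest of 5q, that is 10 steps against 7, a ratio of 1.43. On the fine steps it was 1.13 and 0.723, that is 72 steps against 46, a ratio of 1.57. The background of distal 5q was thus higher among the peaks on coarse steps and among those on fine steps. These are different peaks, sorted by the background value itself, so they are not separate measurements of the same difference. The finest steps were used by 4.21% of its peaks and by 2 of 348 (0.575%) in the rest of 5q, against 2.97% in the list.

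Pileups were higher in distal 5q too, while fold enrichment was close. The pileup, the number of fragments over the summit, had a median of 29 (28 to 32) with quartiles of 20 and 49 in distal 5q, and of 21 (19 to 22) with quartiles of 15 and 31.25 in the rest. The ratio was 1.38, with bounds of 1.27 to 1.68. Pileups of at least 50 made up 23.9% of the peaks in distal 5q, 10.6% in the rest and 18.2% in the whole list. Those of at least 100 numbered 16 (3.07%) and 3 (0.862%), against 2.56% in the list. The authors' fold enrichment, which sets the pileup against the background, had a median of 11.6 (11.07 to 12.7) in distal 5q, 11.0 (10.2 to 11.8) in the rest and 11.7 in the whole list. Its ratio of 1.06 has bounds of 0.937 to 1.248, which include 1. Among peaks with a pileup of at least 20 the order turned, with medians of 13.9 and 15.4 and a ratio of 0.898.

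**Figure D2:**
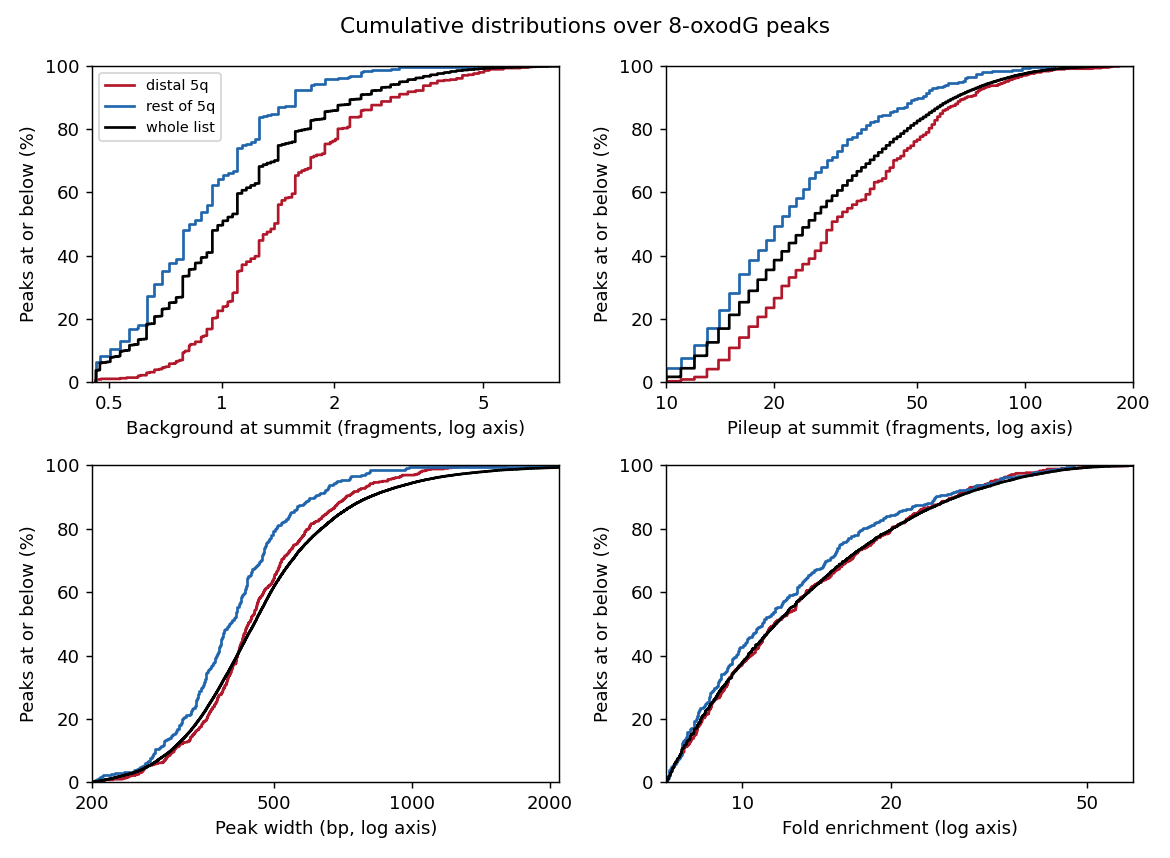
Cumulative share of peaks (%) against background at the summit, pileup, width and fold enrichment, each on a log axis, for distal 5q, the rest of 5q and the whole list. The curves stand apart for background (medians 1.38 and 0.834) and pileup (29 and 21), less so for width (439 and 399.5 bp), and lie close for fold enrichment (11.6 and 11.0).

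At matched background the median pileups of the parts lay closer together than over all peaks, in classes chosen after the values were seen. Background is derived from pileup and fold enrichment, so within a class of background the pileup largely follows the fold. The classes restate the closeness of fold enrichment and are not a separate observation. Below 0.75 fragments the median pileup was 17 (13 to 26) over 32 peaks in distal 5q and 15 (14 to 17) over 131 in the rest. From 0.75 to 1 fragment the median pileup was 20 over 86 peaks in distal 5q and 21 over 93 in the rest. In the next classes up to 1.5 fragments it was 24.5 (20 to 27) over 90 peaks against 22 (19 to 31) over 43, and then 28.5 (23 to 34) over 96 against 23 (19 to 29) over 37, the widest gap. Between 1.5 and 2 it was 31 over 94 and 31 over 29. From 2 fragments upwards it was 51 (43 to 55) over 124 and 48 (31 to 57) over 15. The lowest fold in the list, 7.001, sets a least pileup for each background. How far this bears on the pileups of the 2 parts was not tested. Across the 522 peaks, which share the library and are not independent, pileup rose with background (Spearman's rho = 0.541) and fold enrichment hardly did (rho = 0.0312). In the rest of 5q the same values were 0.476 and 0.0703.

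Peaks of distal 5q were slightly wider. The median width was 439 bp (428 to 454) with quartiles of 373 and 556 bp, against 399.5 bp (383 to 418) with quartiles of 337 and 479 bp in the rest, and 452 bp in the list. The ratio was 1.10, with bounds of 1.02 to 1.19. Peaks of at least 1 kb numbered 16 of 522 (3.07%) and 2 of 348 (0.575%), against 5.56% in the list. Among peaks with a pileup of at least 20 the medians were 473 and 462.5 bp, a ratio of 1.02. Width rose with fold enrichment in distal 5q (rho = 0.516) and with background (rho = 0.436).

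Density was higher in distal 5q than in the rest of the arm, but close to that of the genome. It was 8.58 peaks per sequenced Mb (7.86 to 9.35) over 60.8 Mb, against 4.94 (4.43 to 5.48) over 70.5 Mb in the rest, 7.72 (6.94 to 8.56) on 5p and 8.35 in the list. The ratio of distal 5q to the rest was 1.74 (exact interval 1.51 to 1.997). Peaks covered 0.419% of the sequence in distal 5q and 0.213% in the rest. The rest of 5q was thus below the list and distal 5q close to it. The ratio rose over classes of fold enrichment. It was 1.52 (1.22 to 1.89) at a fold enrichment of 7 to 10, 1.73 (1.33 to 2.27) at 10 to 15, 1.84 (1.27 to 2.69) at 15 to 20 and 2.25 (1.61 to 3.18) at 20 or more, with intervals that overlap. Among peaks with a pileup of at least 20 it was 2.41. That filter kept 399 of 522 peaks in distal 5q and 192 of 348 in the rest, where pileups were lower. The value is therefore no separate support for a larger ratio among strong peaks.

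**Figure D3:**
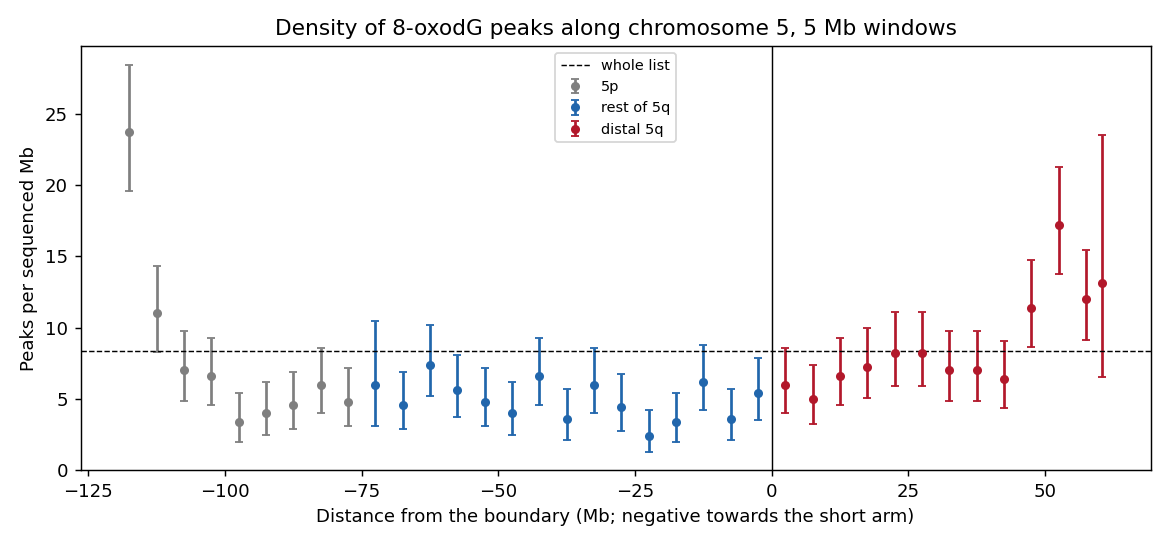
Peaks per sequenced Mb in 5 Mb windows along chromosome 5 (points, with exact 95% Poisson intervals) against the distance from the 120 Mb boundary, with the density of the whole list as a dashed line. Density stays between 5.00 and 8.20 over the first 45 Mb beyond the boundary and reaches 17.2 in the window from 170 Mb. The last window covers only the end of the arm beyond 180 Mb.

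The density of distal 5q was not even and was highest in 5q35. From the boundary to the end of 5q34 there were 331 peaks in 47.4 Mb, or 6.98 per Mb (6.25 to 7.78). In 5q35 there were 191 in 13.4 Mb, or 14.2 per Mb (12.3 to 16.4), so 36.6% of the peaks of distal 5q lay in its outermost bands. Against the rest of 5q these densities were 1.41 and 2.88 times as high. The background did not follow in the same measure, with medians of 1.29 (1.23 to 1.42) and 1.57 (1.42 to 1.67), or 1.55 and 1.89 times the rest of 5q. Fold enrichment was 11.7 (11.11 to 12.8) and 11.2 (10.4 to 13.1). The inner stretch of distal 5q therefore combined a background well above the rest of the arm with a density below that of the list.

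Raised density was counted in the same way, at 1.5 times the median window of the list (7 per Mb). Over the list 23.28% of 1 Mb windows passed. In distal 5q 17 of 61 passed (27.9%), a share near that of the list, and in the rest of 5q 1 of 71 (1.41%). Windows of distal 5q held 8.56 ± 4.59 peaks on average (SD over 61 windows), from 2 to 21, and none was empty. Those of the rest held 4.90 ± 2.36 (SD over 71 windows), from 0 to 10, and 2 were empty. The fullest windows of distal 5q were neighbours in 5q35.2, starting at 174 Mb with 21 peaks, at 172 Mb with 19 and at 173 Mb with 18. The emptiest were a window in 5q23.2 that falls mostly in the longest stretch without a peak, and that from 163 Mb in 5q34, with 2 peaks each, and that from 128 Mb in 5q23.3 with 3, a number also found from 135, 137, 152 and 156 Mb.

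Neighbouring peaks lay closer together in distal 5q. The median distance between midpoints was 70709 bp with quartiles of 24508 and 160938 bp, against 133139 bp (61417 and 274950 bp) in the rest. Of the peaks, 21 (4.02%) had a neighbour within 1 kb and 121 (23.18%) within 10 kb, against 2 (0.575%) and 31 (8.91%) in the rest. The shares over the whole list were not computed, so they do not mark distal 5q out from the genome. Density also differed, at 8.58 and 4.94 peaks per Mb, and how far it accounts for the spacing was not tested. The longest stretches without a peak were 0.883 Mb in 5q23.2 (chr5:125228926-126111950), 0.851 Mb in 5q23.3 (chr5:128368141-129218910) and 0.769 Mb in 5q34 (chr5:162977748-163746685). Each was shorter than the longest in the rest of 5q, at 2.22, 1.40 and 1.07 Mb. Mappability was not taken into account, so some of these stretches may be sequence that short reads cannot be placed on.

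By cytogenetic band, all 13 bands that lie wholly in distal 5q had a median background above the median band of their own Giemsa class in the list, by 1.17 to 1.90 times, and 8 of 13 had a higher density. In the rest of 5q 4 of 18 bands did so for background and 4 of 18 for density. A median splits the bands of its class evenly, so 8 of 13 by density is near the share over all bands. Of the 8, 5q23.3 and 5q33.1 were barely above, at 1.03 and 1.07 times. Band means were 1.34 ± 0.157 fragments (SD over 13 bands) in distal 5q and 0.860 ± 0.149 (SD over 18 bands) in the rest. The lowest band of distal 5q, at 1.10, was reached by 1 of the 18 bands of the rest, 5q14.2 at 1.26 with 5 peaks, and by 26.3% of the 750 stained bands of the list with at least 5 peaks.

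The whole bands nearest the boundary, 5q23.2 and 5q23.3, combined a high background with densities below the 8.35 per Mb of the list. The density intervals of both include 8.35. Against the median band of their own Giemsa class the densities were 0.837 and 1.03 times as high. Band 5q23.2, which carries LMNB1, the gene of lamin B1, and ALDH7A1, an aldehyde dehydrogenase, had 37 peaks, 6.38 per Mb (4.49 to 8.79), and a background of 1.42. Band 5q23.3, dark and with FBN2, a fibrillin of elastic fibres, and the protease gene ADAMTS19, had 16 peaks, 5.16 per Mb (2.95 to 8.38), and a background of 1.49, 1.90 times its class and the largest such ratio among the 13. The dark bands of the same class wholly in the rest of 5q, namely 5q14.3, 5q21.1 and 5q21.3, had 0.786, 0.723 and 0.676, and 5q23.1, which spans the boundary, had 0.944.

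The 5q31 bands, which hold the cytokine genes and the protocadherins, had densities from 5.285 to 10.5 per Mb, with intervals that overlap. In 5q31.1, with IL3, IL4, IL5, IL13 and CSF2, growth and differentiation factors of blood cells, and IRF1, a transcription factor of the interferon response, there were 30 peaks, 6 per Mb (4.05 to 8.57), over a background of 1.29. In 5q31.2, with EGR1, an immediate early transcription factor, CDC25C, a phosphatase of mitotic entry, and CTNNA1, the alpha-catenin of adherens junctions, there were 19, 5.285 per Mb (3.18 to 8.25), over 1.32. In 5q31.3, with the protocadherin clusters, cell adhesion proteins of neurons, CD14, HBEGF and the glucocorticoid receptor gene NR3C1, there were 43, 10.5 per Mb (7.59 to 14.1), over 1.29. The median background was thus level across these bands, while the number of peaks per Mb was highest in 5q31.3. The density intervals of 5q31.1 and of 5q31.2 each overlap that of 5q31.3.

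Further out, 5q32 to 5q34 had densities between 6.29 and 8.16 per Mb. Band 5q32, with PPP2R2B, a regulatory subunit of protein phosphatase 2A, had 31 peaks at 7.56 per Mb and a background of 1.16. Band 5q33.1, with the growth factor receptors CSF1R and PDGFRB, the ribosomal gene RPS14 and SPARC, a matrix protein, had 40 at 8.16 and 1.31. Band 5q33.2, with the glutamate receptor gene GRIA1, had 22 at 6.29 and 1.10, the lowest background of the 13. Band 5q33.3, with EBF1, a factor of B cell development, and IL12B, had 31 at 7.21 and 1.42, and the highest median pileup of these bands (38) and fold enrichment (16.3). Band 5q34, a dark band, had 56 at 7.47 per Mb (5.64 to 9.70), against 5.00 in the median band of its class, and 1.13.

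The 3 outermost bands were the densest. Band 5q35.1, with NPM1, a nucleolar protein, and SLIT3, a guidance ligand, had 68 peaks, 14.2 per Mb (11.0 to 18.0), over a background of 1.45. Band 5q35.2, with MSX2 and NKX2-5, homeobox factors of bone and heart, and the dopamine receptor gene DRD1, had 69, 16.0 per Mb (12.5 to 20.3), over 1.67, the highest of both measures in distal 5q. The terminal band 5q35.3, with FLT4, a receptor of lymphatic growth, and SQSTM1, an autophagy receptor, had 54, 12.4 per Mb (9.35 to 16.2), over 1.42. The end of the other arm, 5p15.33, had 26.3 per Mb (21.7 to 31.6) over 1.26. It was thus denser than 5q35.3, with separate intervals, and lower by median background. In 5 Mb windows the background intervals of the ends overlap. They were 1.10 to 1.54 from 0 Mb, 1.16 to 1.79 from 175 Mb and 1.07 to 4.56 from 180 Mb.

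**Figure D4:**
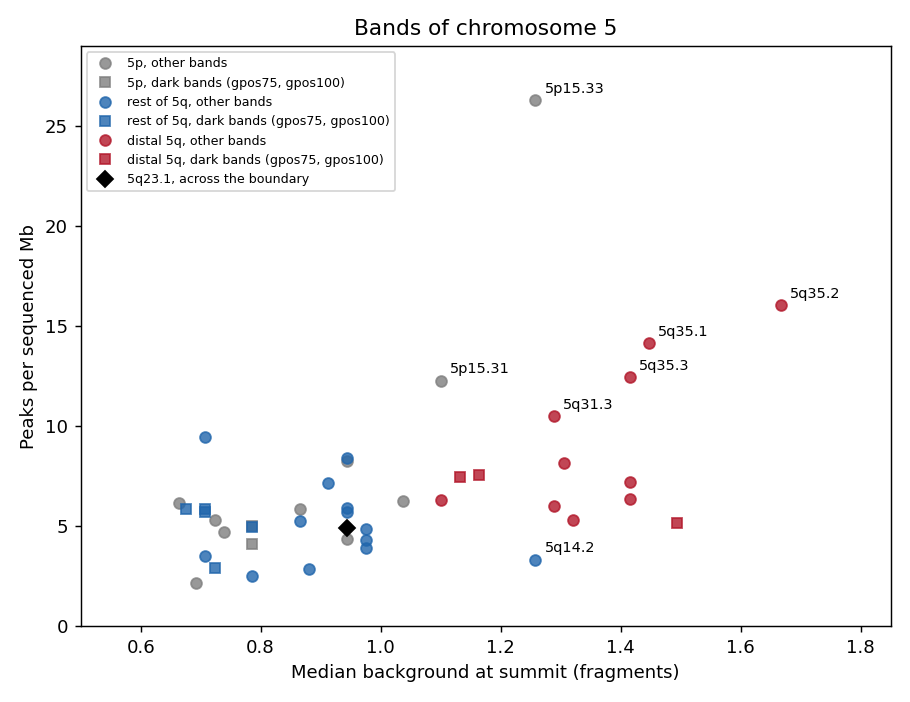
Peaks per sequenced Mb against median background at the summit (fragments) for bands of chromosome 5 with at least 3 peaks, squares for the darkest Giemsa classes. All 13 bands of distal 5q lie at 1.10 or above, where the rest of 5q has 5q14.2 alone, and 5q35.1, 5q35.2 and 5q35.3 lie highest by density within the arm.

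Background was higher in distal 5q within each of the 4 Giemsa classes that both parts hold, while the density intervals were separate in Giemsa-negative bands and overlapped in the other 3. The classes differ in the share of sequence they take up (Giemsa-negative bands 54.6% of distal 5q and 37.9% of the rest). In Giemsa-negative bands the background was 1.42 against 0.944 and the density 9.12 (8.12 to 10.2) against 5.06 (4.24 to 5.98) per Mb. In gpos100 bands the background was 1.18 against 0.786 and the density 6.45 (5.10 to 8.05) against 4.75 (3.92 to 5.69), intervals that overlap. In gpos50 bands, of which distal 5q has 5q33.2 alone, the background was 1.10 against 0.912. The density there was 6.29 (3.94 to 9.53) against 4.12 (3.03 to 5.48). In gpos75 bands, of which distal 5q has 5q32 alone, the background was 1.16 against 0.708, and the densities of 7.56 (5.14 to 10.7) and 5.80 (4.14 to 7.89) have intervals that overlap.

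The peaks of highest fold enrichment in distal 5q fell into 3 bands. The highest, chr5:174948073-174948845 in 5q35.2, had a pileup of 174 over a background of 1.89 and a fold of 60.6, with rank 23 in the list. The next, chr5:173917712-173918749 in the same band, had 111 over 1.26 and a fold of 49.6. In 5q33.1, chr5:148291139-148291902 had 163 over 2.33 and a fold of 49.3, and chr5:149600862-149601671 had 154 over 2.17 and a fold of 48.9. The fifth, chr5:121068625-121069486 in 5q23.1, had 107 over 1.26 and a fold of 47.8. In the rest of 5q the highest fold was 47.1, at a pileup of 92 over 0.975.

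By pileup the first in distal 5q was chr5:158457917-158458724 in 5q33.3, with 183 fragments over a background of 4.403 and a fold of 34.1. The peak in 5q35.2 with 174 came second, and chr5:146619257-146620157 in 5q32 after it, with 171 over 3.15 and a fold of 41.5. The pair in 5q33.1 with 163 and 154 completed the 5 highest. The highest pileup in the rest of 5q was 120, reached by peaks in 5q12.1 and 5q14.3 with folds of 47.03 and 44.3. The 5 top peaks of distal 5q by pileup thus had higher pileups over higher backgrounds. Their folds ran from 34.1 to 60.6, on both sides of those of the rest. Distal 5q has more peaks (522 against 348), and a larger set tends to hold higher extremes.

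The widest peaks of distal 5q stayed below 2 kb and stood over high background. They were chr5:136879789-136881393 in 5q31.2 (1605 bp, background 5.19), chr5:175396324-175397791 in 5q35.2 (1468 bp, 3.30), chr5:180639396-180640662 in 5q35.3 (1267 bp, 5.66), chr5:159863703-159864924 in 5q33.3 (1222 bp, 4.403) and chr5:173170075-173171272 in 5q35.2 (1198 bp, 6.76). Their folds were 16.8, 20.7, 18.0, 12.03 and 9.66. The widest in the rest of 5q measured 2077 bp in 5q11.2, over 2.36.

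Set beside whole arms of the list, distal 5q was high by background and average by density. Of the 41 other arms with peaks, 7 had a median background at or above its 1.38 (8p, 8q, 16q, 19q, 20p, 20q and 21p, the last with 9 peaks), and 22 had a density at or above its 8.58. Of the arms 8q, 20q and 1q, 8q lay closest to it, with a background of 1.48 (1.42 to 1.57), a density of 8.77 (8.20 to 9.375) and a median pileup of 31. On 20q the background of 1.42 (1.38 to 1.51) came with a density of 16.4 (15.02 to 17.8). On 1q the density of 7.96 (7.42 to 8.52) was also near that of distal 5q, with a background of 0.944 (0.881 to 0.944). A background of this height thus occurred with both average and high densities elsewhere in the list.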

How the data were processed

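The members and band lists were chosen with earlier results of these data known. The submitters' processing notes name BWA, SAMtools, bedtools and build hg18. No caller, control or way of pooling is named in the sources used here. The authors deposited 1 combined peak list with, per the file headers, width, summit, pileup (a signal in fragments), fold enrichment, p-value and q-value per peak, as scores with decimal points lost (p and q on the −log10 scale). Points were restored from the Poisson relation between pileup, background and p, met within 0.01 by 23640 of 23641 peaks, and by all on chromosome 5. In 2000 rows simulated from the same relation 100% were recovered, over narrower ranges of background and fold than the list holds. That checks the decoding step and not the relation itself. Background is (pileup + 1) / fold enrichment − 1. Depth per sample is unknown.

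Bands (circlize 0.4.16) and sequenced contigs (IRanges 2.36.0) of hg18 were read in R 4.3.3, and densities use contig length. Python 3.11.15, numpy 2.4.6, pandas 2.3.3, scipy 1.17.1 and matplotlib 3.10.9 were used. Density intervals are exact Poisson intervals, shares and density ratios use exact Clopper-Pearson intervals, and medians exact order-statistic intervals. Windows needed at least 50% sequence. Values within 0.01% of a threshold counted as reaching it. Named were all bands of distal 5q, its 5 highest peaks by fold and by pileup, its 5 widest, the 3 fullest and 3 emptiest windows and the 3 longest stretches without a peak. No hg18 genome was used, so no sequence is printed.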

Additional observations from a re-analysis of the deposited data

How the results depend on the processing

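The background ratio of distal 5q to the rest of 5q stayed within its bounds in all 17 alternatives (1.49 to 1.80). The density ratio stayed above 1 in all 17 and outside its interval in 5. It was 2.50 for widths from the median up, 2.36 at or above the median −log10 q, 2.41 at a pileup of at least 20, 1.35 in the gpos75 and gpos100 bands and, in an alternative chosen after seeing the data, 1.41 without 5q35.1 to 5q35.3. The cause of these shifts was not tested. With a pileup of at least 20, which by construction removes low peaks, the ratio of width was 1.02, that of pileup 1.27 and that of fold enrichment 0.898, against 1.06 in the full list. Fold enrichment was also below 1 for widths from the median up (0.948) and at or above the median −log10 q (0.982). With a threshold of 1.5 times the median window, 50.8% of windows in distal 5q and 3.28% in the rest had raised background. At 2 times its density, 16.4% and 1.41% had raised density. The shares of the whole list at these thresholds were not recorded, so these values compare the parts of 5q only. Leaving out a sample was not possible, because the list holds no value per sample. No paired analysis was possible because there is 1 group.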
